A study of Mus musculus with 6 samples.

Results

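Macrophages of the congested mouse liver that carried transcripts of Gpnmb or Itgax, 2 markers known from macrophages of scarred liver, are described here. The selection found 146 cells among the 38697 cells kept from 6 single-cell libraries. A kept cell had at least 300 genes, at least 500 UMIs (counted RNA molecules) and at most 30% mitochondrial UMIs. A macrophage had to show at least 2 of C1qa, C1qb, C1qc, Csf1r, Ctss and Ms4a7. It counted as a scar-type macrophage where at least 2 of Gpnmb, Itgax, Cd63, Trem2, Cd9 and Spp1 were also detected, with Gpnmb or Itgax among them. Cells with a UMI of Timd4, Xcr1, Flt3 or Cd209a were left out, as were cells with more than 1 UMI summed over Stab2, Clec4g, Cd79a, Reln and Epcam. Of the 4893 macrophages under these limits with Timd4 allowed, 2342 carried Timd4, the phosphatidylserine receptor of resident Kupffer cells, and 2405 were Timd4-zero macrophages outside the scar-type class.

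The mice were wild-type males, 8 to 10 weeks old when the inferior vena cava was partly ligated (pIVCL), an operation that congests the liver. After 2 weeks, osmotic pumps delivered CWHM-12, an inhibitor of every integrin with the αV subunit, at 100 mg/kg/day (3 libraries) or the DMSO vehicle (3 libraries), for 4 weeks before the livers were collected. All mice had the ligation, so no library shows an uncongested liver. Cells were released with pronase and collagenase and read with the BD Rhapsody whole transcriptome assay; the drug was given to the whole animal, so its effect cannot be assigned to one cell type. Batch 2024.6 holds CWHM-12 1, DMSO 1 and DMSO 2, and batch 2024.12 holds CWHM-12 2, CWHM-12 3 and DMSO 3. The libraries held 28220477 to 48100436 UMIs over 10000 barcodes each, and no pair shared more than 5 barcodes. By their titles the samples come from separate mice, but no mouse identifier is given, so p-values measure the spread between libraries, which may be technical.

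Resident Kupffer cells line the sinusoids, clear particles and old red cells, and are marked by Clec4f, Timd4, Vsig4 and Cd163. After injury, monocytes enter the liver through the receptor Ccr2 and become macrophages. Those that settle on lipid debris or scar bands switch on Trem2, a receptor for lipids and apoptotic cells, Gpnmb, a glycoprotein of lysosomes and phagosomes, Cd9 and Cd63, tetraspanins of the cell surface and of late endosomes, and Spp1, the matrix protein osteopontin. Itgax encodes CD11c, the αX integrin subunit, which is also used by dendritic cells and some NK cells. Integrins with αV bind latent TGF-β and free the active cytokine. The treatment comparison asks whether macrophages of this kind differ when those integrins are blocked.

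Gpnmb and Itgax admit a cell to the class, so their promoter windows are shown. Each runs from 250 bases before the RefSeq start site to 50 after it, in build GRCm38.p6, on the plus strand. Capitals mark the match to TGANTCA, the AP-1 motif bound by Fos and Jun proteins.
Gpnmb, chr6:49036268-49036567: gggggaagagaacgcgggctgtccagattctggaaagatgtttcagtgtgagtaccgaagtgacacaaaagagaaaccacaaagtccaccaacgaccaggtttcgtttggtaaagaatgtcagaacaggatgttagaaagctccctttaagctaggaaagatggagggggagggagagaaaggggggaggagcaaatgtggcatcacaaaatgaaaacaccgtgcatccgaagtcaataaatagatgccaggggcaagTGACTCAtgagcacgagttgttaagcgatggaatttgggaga
Itgax, chr7:128129300-128129599: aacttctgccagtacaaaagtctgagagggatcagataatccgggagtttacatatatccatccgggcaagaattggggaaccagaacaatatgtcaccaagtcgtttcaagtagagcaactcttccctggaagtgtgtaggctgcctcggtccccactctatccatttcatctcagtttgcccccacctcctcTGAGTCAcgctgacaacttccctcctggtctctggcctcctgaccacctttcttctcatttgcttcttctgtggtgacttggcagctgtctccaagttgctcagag
The Gpnmb match is TGACTCA with its first base at position 9 after the start site, and the Itgax match is TGAGTCA with its first base at position -56. On either strand, TGANTCA was found in 2565 of 32851 windows of the same kind (7.81%). Neither window held the E-box CACGTG, found in 7.15% of windows, or the ETS letters GAGGAA, found in 28.3%. A match says only that the letters are there.

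Most members came in through Itgax. Of the 146, 84 had Itgax without Gpnmb (Itgax-only cells), 41 had Gpnmb without Itgax and 21 had both. In CWHM-12 1 to 3, 2, 11 and 4 cells had Gpnmb, against 12, 5 and 28 in DMSO 1 to 3. Itgax-only cells numbered 18, 7 and 4 in CWHM-12 1 to 3, against 22, 13 and 20 in DMSO 1 to 3. The mix of the 2 entry genes thus differed between libraries, and CWHM-12 1 was nearly all Itgax-only. The commonest pairs were Itgax with Trem2 (57 cells), Itgax with Cd9 (55) and Gpnmb with Trem2 (45).

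The values of the selecting genes describe the choice and carry no test. Gpnmb summed to 14.5, 720.4 and 789 CPM in CWHM-12 1 to 3, against 166, 127 and 282 CPM in DMSO 1 to 3, where CPM is the gene's UMIs scaled to a fixed total of UMIs in the summed cells. Itgax summed to 349, 570.3 and 809 CPM in CWHM-12 1 to 3, against 393, 609.8 and 262 CPM in DMSO 1 to 3. Both genes were highest in CWHM-12 3, which held 8 members, and Gpnmb was lowest in CWHM-12 1. Trem2 summed to 94.5, 190.1 and 121 CPM in CWHM-12 1 to 3, against 321, 115 and 529 CPM in DMSO 1 to 3 and was detected in 58.9% of members. Cd63 summed to 50.9, 240.1 and 789 CPM in CWHM-12 1 to 3, against 94.0, 322 and 187 CPM in DMSO 1 to 3, and Cd9, found in 43.8% of members, to 124, 160.1 and 121 CPM in CWHM-12 1 to 3, against 127, 127 and 103 CPM in DMSO 1 to 3. Trem2 stood highest in DMSO 3 and DMSO 1, Cd63 in CWHM-12 3, and Cd9 was nearly level across libraries. Spp1 was almost silent, with 10 UMIs in 3 cells, 7 of them in a single cell. So the class carries the label's markers unevenly: 62 of 146 members showed Gpnmb, and the osteopontin of scar macrophages was at 2.05% of cells, beside 1.04% of the other Timd4-zero macrophages.

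**Figure D1:**
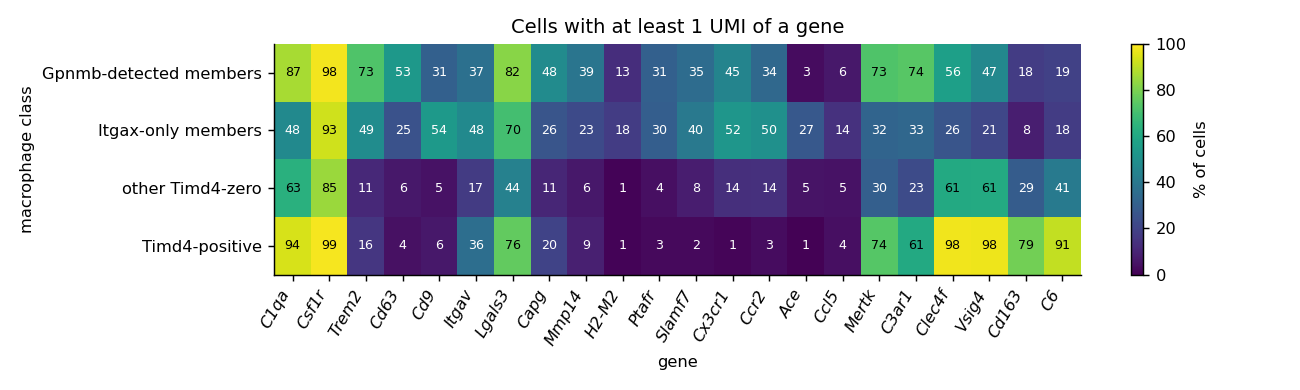
Percent of cells with at least 1 UMI of a gene (columns) in Gpnmb-detected and Itgax-only scar-type macrophages, the other Timd4-zero macrophages and Timd4-positive macrophages (rows; 62, 84, 2405 and 2342 cells), as colour and number. C1qa, Csf1r, Trem2, Cd63 and Cd9 are genes of the rule. Both scar-type rows are high for Ptafr, Slamf7, Cx3cr1 and Ccr2 and low for Cd163 and C6, and Mertk and C3ar1 are higher in Gpnmb-detected cells.

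Detection follows depth. Members had a median of 4316 UMIs and 1869.5 genes, the other Timd4-zero macrophages 1693 UMIs and 872 genes, and Timd4-positive macrophages 4683 UMIs. Of the members, 91 met the clause with exactly 2 of its genes, 35 with 3, 13 with 4 and 7 with 5. Just outside were 111 cells with Gpnmb or Itgax as the single clause gene. Clec4f, a lectin receptor of Kupffer cells, was detected in 36.3% of the 91 cells just inside and 36.0% of the 111 just outside, and Ccr2 in 48.4% of those inside and 52.3% of those outside. H2-M2, a nonclassical MHC class I gene, was detected in 14.3% of those inside and 4.50% of those outside. Another 46 cells met the clause but carried Timd4; they were deeper, with a median of 8893 UMIs, and 93.5% of them had Clec4f. Also outside, 87 cells with 2 or more clause genes but neither Gpnmb nor Itgax had Clec4f in 47.1% and Ccr2 in 11.5% of cells. Ccr2 was in 4.35% of the 46 cells with Timd4. The cells just inside were thus close in Clec4f and Ccr2 to those with Gpnmb or Itgax as the single clause gene, but not in Cx3cr1, the fractalkine receptor (50.5% inside and 34.2% outside), and they held more Ccr2 than both of the other outside groups.

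Cells of other types give the background of the clause. At least 2 clause genes with Gpnmb or Itgax among them were found in 3.92% of the macrophages, in 1.23% of 15637 sinusoidal endothelial cells at a median of 4602 UMIs, in 2.15% of 3540 stellate cells and in 0.175% of 2291 B cells. T and NK cells reached 5.55% of 1658 cells, with Itgax in 14.5% and Gpnmb in 2.05% of them. Among the members, 12 carried a UMI of a T or NK marker, and 11 of these were Itgax-only. Of the 146, 104 showed at least 4 of the 6 core macrophage genes. Only 5 of the 62 Gpnmb-detected cells had fewer, against 37 of the 84 Itgax-only cells. Beside the full class, results are therefore given for a tighter selection with at least 4 core genes, no T or NK UMI and no likely doublet, which was set after the data were seen.

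Scar-type cells were a smaller part of the macrophages in CWHM-12 libraries than in DMSO libraries. They made up 2.06% (20 of 973 cells; exact 95% interval 1.26 to 3.16), 1.80% (1.07 to 2.83) and 1.21% (0.525 to 2.37) in CWHM-12 1 to 3. They made up 3.41% (2.37 to 4.73), 3.85% (2.30 to 6.01) and 6.04% (4.48 to 7.93) in DMSO 1 to 3. These intervals cover counting error only. All 3 CWHM-12 libraries lay below all 3 DMSO libraries. The means were 1.69% ± 0.433 under CWHM-12 and 4.43% ± 1.41 under DMSO (SD, n = 3 each), a difference of -2.74 points. The exact two-sided permutation p was 0.1, the smallest that 20 assignments allow, so the comparison could not pass 0.05. The difference was -1.57 points within batch 2024.6 and -4.53 points within batch 2024.12.

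**Figure D2:**
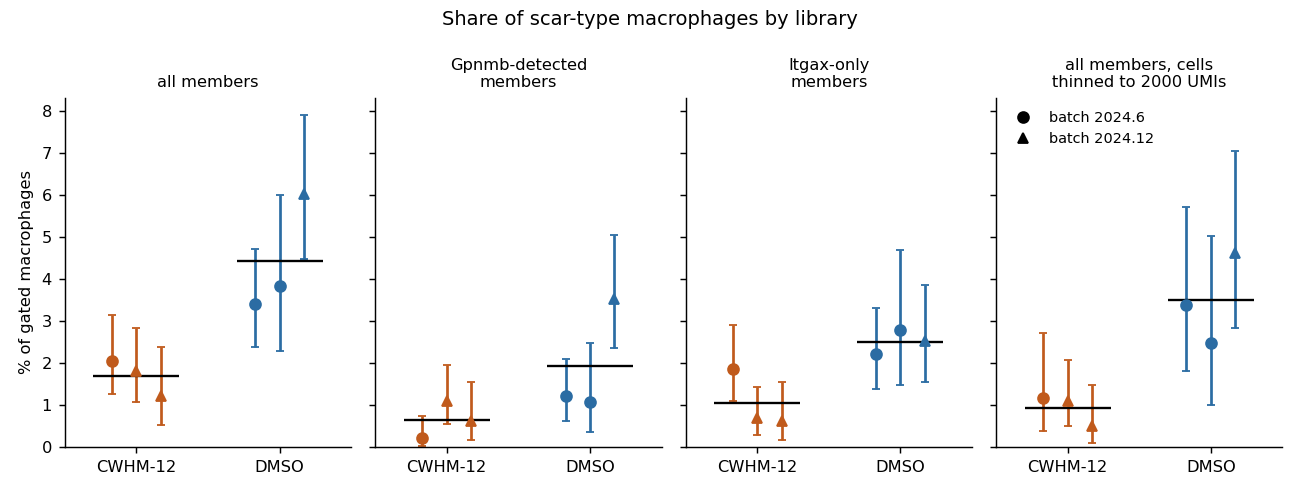
Scar-type macrophages as a percent of gated macrophages in each library, with exact 95% binomial intervals and the group mean as a line. The panels show all members, Gpnmb-detected members, Itgax-only members, and members whose clause was read in cells thinned to 2000 UMIs, over macrophages of at least that depth gated before thinning. The 3 CWHM-12 libraries lie below the 3 DMSO libraries except for Gpnmb-detected members, where the groups overlap.

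Depth differed between the groups, with a median of 3681.5 UMIs per macrophage under CWHM-12 and 1941 under DMSO. Cells were therefore thinned to 2000 UMIs, which left out 795 of 2632 macrophages under CWHM-12 and 1161 of 2261 under DMSO as shallower. With the macrophage limits and Timd4 read before thinning and the clause after it, a setting added after the data were seen, the share was 1.18%, 1.10% and 0.508% in CWHM-12 1 to 3, against 3.39%, 2.47% and 4.62% in DMSO 1 to 3. The groups were apart at this depth. At 1000 UMIs they overlapped, with means of 0.616% under CWHM-12 and 1.22% under DMSO (difference -0.61 points, exact permutation p = 0.4, and -0.28 points without DMSO 3). With every limit read after thinning to 2000 UMIs, the share was 0.638%, 0.880% and 0.353% in CWHM-12 1 to 3, against 2.80%, 2.29% and 2.84% in DMSO 1 to 3. That denominator is another one, since 1367 of its 3123 cells under CWHM-12 and 765 of its 1783 under DMSO did not meet the macrophage limits at full depth. With every limit read after thinning to 1000 UMIs, the share was 0.294% to 0.377% under CWHM-12 and 0.472% to 1.75% under DMSO. The groups were apart there (difference -0.84 points, exact permutation p = 0.1). Of that denominator, 1891 of 4137 cells under CWHM-12 and 1047 of 2769 under DMSO did not meet the limits at full depth. Of the macrophages with at least 4 core genes, another denominator, members made up 1.23% under CWHM-12 and 4.06% under DMSO on average. The shares of Gpnmb-detected and Itgax-only members are again of all the macrophages. Gpnmb-detected members were 0.206%, 1.10% and 0.606% in CWHM-12 1 to 3, against 1.20%, 1.07% and 3.52% in DMSO 1 to 3; these groups overlapped (difference -1.29 points, exact permutation p = 0.2, and -0.498 points without DMSO 3). Itgax-only members were 1.05% on average under CWHM-12 and 2.50% under DMSO. The denominator bears on the share. Among Timd4-zero macrophages alone, scar-type cells were 4.64% under CWHM-12 and 7.33% under DMSO, and the groups overlapped (difference -2.70 points, exact permutation p = 0.3, and -1.69 points without DMSO 3). Timd4-zero cells made up 40.8% ± 23.1 of the macrophages under CWHM-12 and 60.9% ± 8.97 under DMSO, with differences of 7.71 points in batch 2024.6 and -36.8 points in batch 2024.12. Their part in the share was not tested. The same clause also differed in other cell types. It was met by 0.776% of endothelial cells under CWHM-12 and 2.17% under DMSO, and by 3.96% of T and NK cells under CWHM-12 and 7.48% under DMSO. Unlike the macrophages, these cells were deeper under DMSO. Their median UMIs were 4108 under CWHM-12 and 6075 under DMSO in endothelial cells, and 2145 and 3631 in T and NK cells. Stellate cells, at 3867 UMIs under CWHM-12 and 4068.5 under DMSO, met it in 1.62% and 2.77%. B cells met it in 0% under CWHM-12 and 0.273% under DMSO. The part of depth was not tested.

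Against the other Timd4-zero macrophages of the same libraries, scar-type cells had more transcripts of MHC class II, of several surface receptors and of Cx3cr1 and Ccr2, and fewer of the genes that mark Kupffer cells. Summed counts were fitted with edgeR with the library as a block, over the 5 libraries with at least 10 members (CWHM-12 3 was left out). Of 6729 genes tested, 552 passed an adjusted p of 0.05 (8.20%), 165 higher (2.45%) and 387 lower (5.75%) in scar-type cells, genes of the rule among them. In the tighter selection, over 6 libraries, 180 of 3546 passed (5.08%), 70 higher (1.97%) and 110 lower (3.10%). Of the 552 and the 180, 133 were called in both, all with the same sign, which is 24.1% and 73.9% of the 2 lists. The cells were chosen on transcripts of these same libraries, so the test says which other transcripts went with the chosen ones. The levels below are untested ranges over all 6 libraries, and a lower sum can come from fewer cells with the transcript or less of it per cell, which sums cannot tell apart.

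The other Timd4-zero cells also held more RNA of hepatocytes, red cells and stellate cells. All 16 hepatocyte markers tested were lower in scar-type cells, with a median log2 fold change of -2.44, and 12 of 14 passed in the tighter selection. Their summed level was 1181 to 2485 CPM in scar-type cells under CWHM-12 and 2428 to 4407 CPM under DMSO. In the other cells it was 3080 to 58484 CPM under CWHM-12 and 13215 to 24246 CPM under DMSO. All 3 erythroid genes and 4 of 5 stellate markers tested were lower too. Among the strongest falls, Col1a1, a fibrillar collagen of stellate cells, had 44.6% of its UMIs in the other cells in a single cell. T and NK markers moved both ways, with a median of 0.03 over 11 tested: the T cell receptor complex genes Trac, Trbc2 and Cd3e fell, while the granzymes Gzma (log2 3.23) and Gzmb (log2 2.48, edgeR adjusted p = 0.000232, with UMIs in 7 members) rose. Immediate early genes, which tissue dissociation also induces, were higher in scar-type cells. Of 20 tested, Dusp1, Fos, Fosb, Klf6 and Zfp36 rose and 0 fell, with a median of 0.20, and in the tighter selection 3 of 16 rose, with a median of 0.39. The part of all these transcripts in the other differences was not tested.

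Genes of antigen presentation were higher as a group. Of 9 MHC class II genes tested, 8 rose and 0 fell, with a median log2 fold change of 0.97, beside -0.0041 over all genes. In the tighter selection 3 of 8 rose, with a median of 0.58. H2-Ab1, a class II beta chain, stood at 6857 to 11666 CPM (median 8204) in scar-type macrophages. In the other cells it stood at 2918 to 4982 CPM (median 3957), with log2 0.99 (SE 0.133, edgeR adjusted p = 3.72e-05) and log2 0.57 in the tighter selection. The ranges did not overlap. H2-Aa, its partner chain, and H2-Eb1, the beta chain of another class II pair, rose by 0.97 and 1.05 on the log2 scale. H2-Eb1 did not pass without the library block (edgeR adjusted p = 0.0909). Cd74, the invariant chain of class II molecules, chosen after its value was seen, rose by 0.81. Its edgeR adjusted p was, however, 0.0657 in the tighter selection and 0.236 without the block. Dendritic cells carry these genes too, and the rule removed cells with their markers Xcr1, Flt3 or Cd209a. The other dendritic cell markers summed to 1337 to 2467 CPM in scar-type cells under CWHM-12 and 1465 to 1734 CPM under DMSO, against 980 to 1435 CPM under CWHM-12 and 996 to 1303 CPM under DMSO in the other cells. Itgae and Ccr9 were at 0 in scar-type cells. Of 9 dendritic cell markers tested outside the rule, 6 were positive, with a median log2 fold change of 0.43. Clec9a was called higher (log2 2.02) and Kmo lower (log2 -2.05). In the tighter selection 5 of 7 were positive, with a median of 0.31, and Clec9a was called higher (log2 1.71). The part of dendritic cell markers in the rise was not tested.

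Receptors of myeloid cells were among the larger rises. H2-M2 stood at 57.5 to 445 CPM (median 98.7) in scar-type macrophages and at 3.28 to 25.5 CPM (median 6.03) in the other cells (log2 3.49, SE 0.433, edgeR adjusted p = 1.67e-05, and log2 3.20 in the tighter selection). It was detected in 15.8% of scar-type cells and 1.08% of the other cells. Ptafr, the receptor for platelet-activating factor, stood at 75.5 to 283 CPM (median 170.5) in scar-type macrophages and at 10.1 to 40.1 CPM (median 30.5) in the other cells (log2 2.40, SE 0.291, edgeR adjusted p = 1.39e-05, and log2 3.07 in the tighter selection). Every library had more of both genes in scar-type cells, and the ranges did not overlap. Slamf7, a SLAM family receptor of leukocytes, stood at 155 to 495 CPM (median 285) in scar-type macrophages and at 34.5 to 78.8 CPM (median 58.9) in the other cells (log2 2.09, SE 0.232, edgeR adjusted p = 4.80e-06, and log2 2.23 in the tighter selection). Lat2, an adaptor of immune receptor signalling, rose by 1.75 and Clec9a, the dead-cell receptor best known in type 1 dendritic cells, by 2.02 on the log2 scale. Fcgr2b, the inhibitory IgG receptor, rose by 1.36 and was higher in 6 of 6 libraries. Cd93, a C-type lectin-like receptor, and Sema4d, a membrane semaphorin, chosen after their values were seen, rose by 1.66 and 1.31 (log2 2.19 and 2.58 in the tighter selection). These 8 genes passed in every alternative fit that tested them. Timd4-positive macrophages, which had about the depth of the members, showed H2-M2 in 0.811%, Ptafr in 2.52% and Slamf7 in 2.35% of cells, beside 15.8%, 30.1% and 38.4% of scar-type cells, as a description. Ptafr was less particular to the class near its limit. It was in 25.3% of the 91 cells with exactly 2 clause genes and 19.8% of the 111 with Gpnmb or Itgax alone. Of the 46 cells that met the clause with Timd4, 19.6% had Ptafr and 2.17% had H2-M2. Some large rises lay in few cells. Gzma (log2 3.23) had UMIs in 5 members with 52.6% of them in 1 cell, and Lyz1, a lysozyme (log2 2.27), had 75.7% of its UMIs in 1 cell and did not pass without the block.

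**Figure D3:**
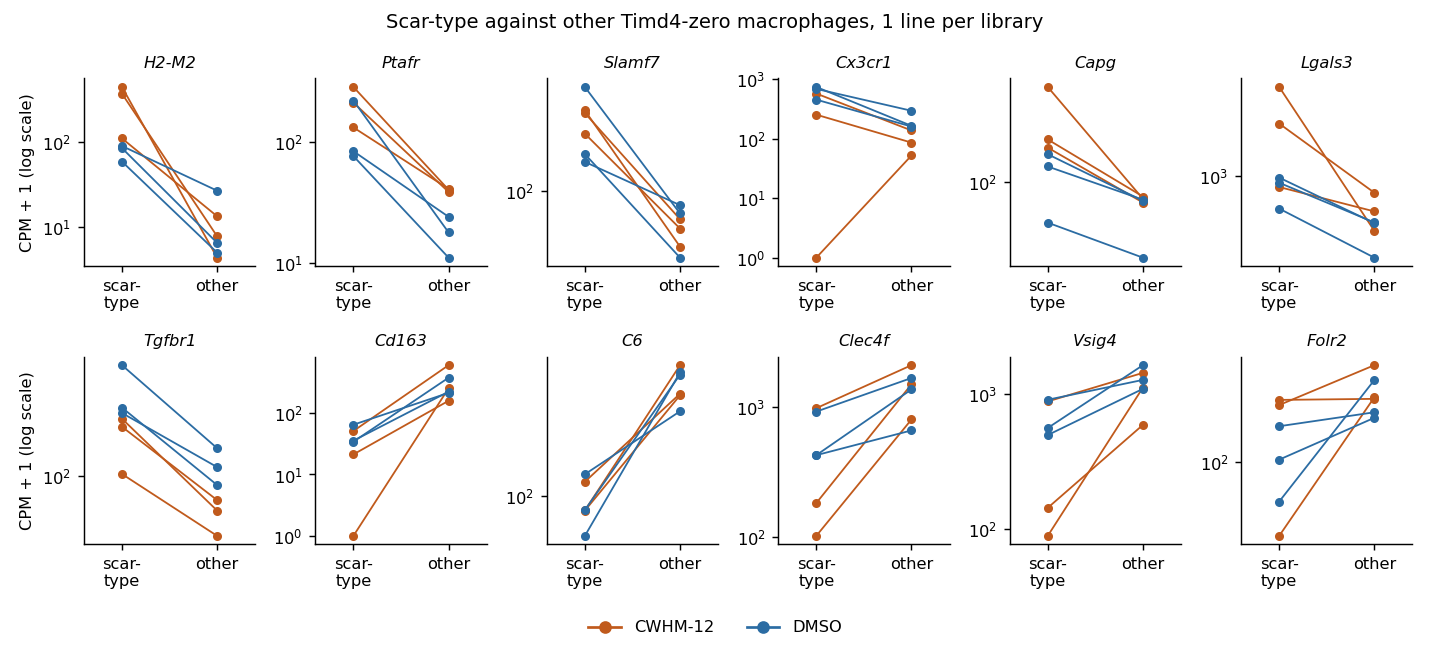
CPM plus 1, on a log scale, of 12 genes in the summed scar-type macrophages (left) and the other Timd4-zero macrophages (right); each line is a library, coloured by treatment. H2-M2, Ptafr and Slamf7 are higher and Cd163 and C6 lower in scar-type cells of every library, and a level of 0 is drawn at 1.

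Genes of monocytes moved both ways. Cx3cr1 stood at 0 to 732 CPM (median 507) in scar-type macrophages and at 50.9 to 291 CPM (median 146) in the other cells (log2 1.69, SE 0.173, edgeR adjusted p = 2.00e-06, and log2 1.91 in the tighter selection). It was higher in 5 of 6 libraries and at 0 in scar-type cells of CWHM-12 3. Ccr2 stood at 690.4 to 1714 CPM (median 1152) in scar-type macrophages and at 348 to 786 CPM (median 554) in the other cells (log2 0.91, SE 0.190, edgeR adjusted p = 0.00344, and log2 2.28 in the tighter selection). Ccr2 was higher in 6 of 6 libraries, but did not pass with the stricter cell filter of 500 genes, 1000 UMIs and 15% mitochondrial UMIs (adjusted p = 0.0509) or without the library block (0.0886). Cx3cr1 was detected in 49.3% of scar-type cells, 13.6% of the other cells and 1.41% of Timd4-positive cells. Of 20 monocyte genes tested, 3 rose (Cx3cr1, Ccr2 and Ace) and 3 fell: Ly6c2, the antigen of classical monocytes, by 1.14, Chil3, a chitinase-like protein, by 1.93 and Fn1, fibronectin, by 2.39 on the log2 scale. With the tighter selection 3 of 11 rose, Cx3cr1, Ccr2 and S100a6, a calcium-binding protein (log2 1.73), and Cd300e, an activating myeloid receptor, fell (log2 -1.91), so Ace, Ly6c2, Chil3 and Fn1 were not among its calls. Ace, Ly6c2, Chil3, S100a6 and Cd300e are named to complete these counts, with their values seen.

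Kupffer cell identity genes were lower. Of 21 tested, 10 fell and 0 rose, with a median log2 fold change of -0.48, and in the tighter selection 11 of 20 fell, with a median of -0.87. Cd163, the scavenger receptor for haemoglobin and haptoglobin, stood at 0 to 63.6 CPM (median 33.8) in scar-type macrophages and at 158 to 601 CPM (median 237) in the other cells (log2 -3.04, SE 0.328, edgeR adjusted p = 3.42e-06, and log2 -3.28 in the tighter selection). C6, a component of the complement attack complex, stood at 55.3 to 135 CPM (median 80.3) in scar-type macrophages and at 335 to 650.3 CPM (median 499.7) in the other cells (log2 -2.48, SE 0.249, edgeR adjusted p = 1.70e-06, and log2 -2.51 in the tighter selection). In both genes every library was lower in scar-type cells and the ranges did not overlap. Clec4f stood at 101 to 980.5 CPM (median 426) in scar-type macrophages and at 661 to 2102 CPM (median 1433) in the other cells (log2 -1.43, SE 0.232, edgeR adjusted p = 0.000293, and log2 -1.88 in the tighter selection). Folr2, a folate receptor of tissue macrophages, and Vsig4, a complement receptor, both chosen after their values were seen, fell by 1.71 and 1.35 on the log2 scale. Clec4f, Folr2 and Vsig4 were lower in 6 of 6 libraries, with overlapping ranges, and none of the 3 passed without the library block. Scar-type cells still held Kupffer transcripts, with Clec4f in 39.0% of them, against 60.8% of the other cells and 97.7% of Timd4-positive cells. Both classes had no Timd4 UMI, but at a median of 4316 UMIs in scar-type cells and 1693 UMIs in the other cells. A shallow cell can miss Timd4 by its depth. The fit on thinned cells kept the classes read at full depth, so the part of missed Timd4 in these falls was not tested.

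Other genes known from lipid-associated and scar macrophages were partly higher. Of 27 tested outside the rule, 9 rose and 0 fell, with a median log2 fold change of 0.49; in the tighter selection 7 of 22 rose and the syndecan Sdc3 fell, with a median of 0.69. Capg, an actin-capping protein, stood at 46.0 to 586 CPM (median 178) in scar-type macrophages and at 23.5 to 75.5 CPM (median 70.3) in the other cells (log2 1.23, SE 0.209, edgeR adjusted p = 0.00048, and log2 1.67 in the tighter selection). Lgals3, galectin-3, stood at 633 to 3498 CPM (median 945) in scar-type macrophages and at 317 to 791 CPM (median 519) in the other cells (log2 0.89, SE 0.148, edgeR adjusted p = 0.000405, and log2 1.25 in the tighter selection). Both were higher in 6 of 6 libraries, and neither passed without the library block. Mmp14, a membrane metalloproteinase, and Gm2a, the activator of ganglioside breakdown, rose by 1.27 and 0.94; Mmp14 was chosen after its value was seen, and did not pass without the block, nor Gm2a with cells thinned to 1000 UMIs. Mmp12, the macrophage elastase, rose by 2.29 (edgeR adjusted p = 0.00806), but the adjusted p was 0.231 in the tighter selection and its log2 fold change 1.42 without CWHM-12 1, where it no longer passed, nor did it without cells with a T or NK UMI, with DESeq2 or without the block. Fabp5, a fatty acid carrier, Lpl, lipoprotein lipase, and Apoe, chosen after their values were seen, did not pass, with log2 values of 1.20, 0.40 and -0.14. In the tighter selection, however, Apoe was called lower (log2 -0.53, edgeR adjusted p = 0.0339). Apoc1, an apolipoprotein, stood at 50.9 to 191 CPM (median 109) in scar-type macrophages and at 708 to 2330.1 CPM (median 776) in the other cells (log2 -2.74, SE 0.210, edgeR adjusted p = 1.20e-07, and log2 -2.49 in the tighter selection). Lysosomal genes rose in 6 of 27 (median 0.30), but in the tighter selection 1 of 25 did, Psap, and the median was 0.02.

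Genes of TGF-β signalling and of integrins moved in few members. Of 13 genes of the TGF-β pathway tested, 2 rose. Tgfbr1, the type I receptor, stood at 101 to 426 CPM (median 218) in scar-type macrophages and at 44.3 to 142 CPM (median 79.4) in the other cells (log2 1.38, SE 0.179, edgeR adjusted p = 2.65e-05, and log2 1.19 in the tighter selection). It was higher in 6 of 6 libraries and was detected in 73 of 146 scar-type cells, against 16.5% of the other cells. Nrros, which holds latent TGF-β on macrophages, rose by 0.58 but was not among the calls of the tighter selection, where Tgfbr1 was the single call of 7. Tgfbi, a matrix protein induced by TGF-β, rose by 0.91. Of 12 integrin subunits tested outside the rule, 3 rose, Itga4 (0.75), Itgal (0.55) and Itgb2 (0.66). Of 8 integrins in the tighter selection Itga4 alone passed (log2 1.01), 5 were negative and the median was -0.03, beside 0.45 in the full class. Itga4 had a log2 fold change of 0.58 without DMSO 1 and then did not pass, nor with the stricter cell filter or without the library block. The drug target Itgav summed to 138, 70.0 and 40.4 CPM in CWHM-12 1 to 3, against 166, 265 and 139 CPM in DMSO 1 to 3 in scar-type cells. Itgav did not pass between the treatments in scar-type cells (log2 -0.76, edgeR adjusted p = 0.998, and log2 -1.35 in the tighter selection). It did not pass between the classes either (log2 0.55, edgeR adjusted p = 0.132), and had a log2 value of -0.04 there in the tighter selection. Interferon-stimulated genes had 0 calls among 23 tested with edgeR, 17 of them negative. Under the tighter selection 17 of 19 were negative and Irf7, an interferon regulatory factor, was called lower (log2 -0.84, edgeR adjusted p = 0.0301).

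The 2 ways into the class differed in the other transcripts the cells held. Only DMSO 1 and DMSO 3 had 10 cells of each kind, so the fit of Gpnmb-detected against Itgax-only cells rests on 2 libraries with 1 residual degree of freedom. Of 2048 genes, edgeR called 122 (5.96%), 64 higher (3.12%) and 58 lower (2.83%) in Gpnmb-detected cells, DESeq2 called 3, and with at least 4 core genes in every cell edgeR found 0 (71 unadjusted at 0.05). In the tighter selection 1 gene passed, Gpnmb itself, and the 3 of DESeq2 were Gpnmb, Ace and Ccl5. The 6 core macrophage genes of the rule summed to 17006 to 20149 CPM in Gpnmb-detected cells of DMSO libraries, against 12165 to 15603 CPM in Itgax-only cells. Within that limit, 8 of 23 lysosomal genes and 5 of 15 Kupffer identity genes were called higher and 0 lower. Their medians were 0.66 and 0.73, beside -0.01 over all genes. In the tighter selection 0 of 21 lysosomal and 0 of 13 Kupffer identity genes were called, with medians of 0.22 and 0.64. Mertk, a receptor for apoptotic cells, was detected in 72.6% of Gpnmb-detected and 32.1% of Itgax-only cells (log2 1.58, edgeR adjusted p = 0.000587). C3ar1, the receptor for complement C3a, was detected in 74.2% of Gpnmb-detected and 33.3% of Itgax-only cells (log2 1.76, edgeR adjusted p = 1.70e-05). Mertk was higher in 5 of 6 libraries, the exception being CWHM-12 1 with 2 Gpnmb-detected cells.

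Several monocyte genes and the T and NK markers tested were lower in Gpnmb-detected than in Itgax-only cells. Of 17 monocyte genes, 7 were called lower and 2 higher, Ly6c2 (log2 3.07) and F13a1 (log2 4.15), with a median of -1.17. All 5 tested in the tighter selection were negative, edgeR called none of them, and no T or NK marker was tested. Ace was detected in 3.23% of Gpnmb-detected and 27.4% of Itgax-only cells (log2 -6.29, edgeR adjusted p = 2.73e-12). Spn, the sialophorin CD43 of patrolling monocytes, was detected in 8.06% of Gpnmb-detected and 31.0% of Itgax-only cells. Ccr2, named with its value seen, was detected in 33.9% of Gpnmb-detected cells and 42 of 84 Itgax-only cells. Gzma, a granzyme, and Il2rb, an interleukin receptor chain, had no UMI in Gpnmb-detected cells. All 3 T and NK markers tested were lower in Gpnmb-detected cells, and 12 of the 18 markers of that list were at 0 there. Few cells carried them, since 11 of the 84 Itgax-only cells had a T or NK UMI and Gzma lay in 5 members. Their part in the differences was not tested. The entry genes' own companions, given as description, were Trem2 in 72.6% of Gpnmb-detected and 48.8% of Itgax-only cells, Cd63 in 53.2% of Gpnmb-detected cells and 21 of 84 Itgax-only cells, and Cd9 in 30.6% of Gpnmb-detected and 53.6% of Itgax-only cells.

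Within scar-type macrophages, no gene passed between CWHM-12 and DMSO. Over 5 libraries (CWHM-12 3, with 8 members, was left out of the fit) and 2898 genes, edgeR with a batch term called 0 (0%), while 73 genes had an unadjusted p under 0.05. With DESeq2 the count was 0 (19 unadjusted) and with limma voom 0 (105 unadjusted). The values below are those of smallest p with at least 50 CPM and did not pass; the edgeR adjusted p was 0.998 for each.

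Hpgds, the synthase of prostaglandin D2, summed to 36.3, 110.1 and 20.2 CPM in CWHM-12 1 to 3, against 177, 265 and 306 CPM in DMSO 1 to 3 (log2 -1.98, SE 0.493). Wwp1, a ubiquitin ligase, summed to 43.6, 50.03 and 80.9 CPM in CWHM-12 1 to 3, against 116, 161 and 199 CPM in DMSO 1 to 3 (log2 -1.79, SE 0.481). Each CWHM-12 library, the one outside the fit included, lay below each DMSO library for both genes. The genes here were picked by smallest p, so groups that lie apart follow in part from the choice. The share of all genes whose groups lie apart was not counted. Egr1, an immediate early transcription factor, summed to 327, 550.3 and 384 CPM in CWHM-12 1 to 3, against 116, 46.0 and 191 CPM in DMSO 1 to 3 (log2 1.70, SE 0.414). All 3 CWHM-12 libraries were above all 3 DMSO libraries for Egr1. Mmp12 summed to 319.7, 240.1 and 0 CPM in CWHM-12 1 to 3, against 49.8, 92.0 and 63.6 CPM in DMSO 1 to 3 (log2 2.08, SE 0.424). The groups overlapped, and 41 of its 101 UMIs lay in a single cell. Olfml3, a secreted olfactomedin family protein, summed to 0, 30.015 and 0 CPM in CWHM-12 1 to 3, against 49.8, 138 and 195 CPM in DMSO 1 to 3 (log2 -3.37, SE 0.870). Olfml3 was lower in each CWHM-12 library than in each DMSO library.

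**Figure D4:**
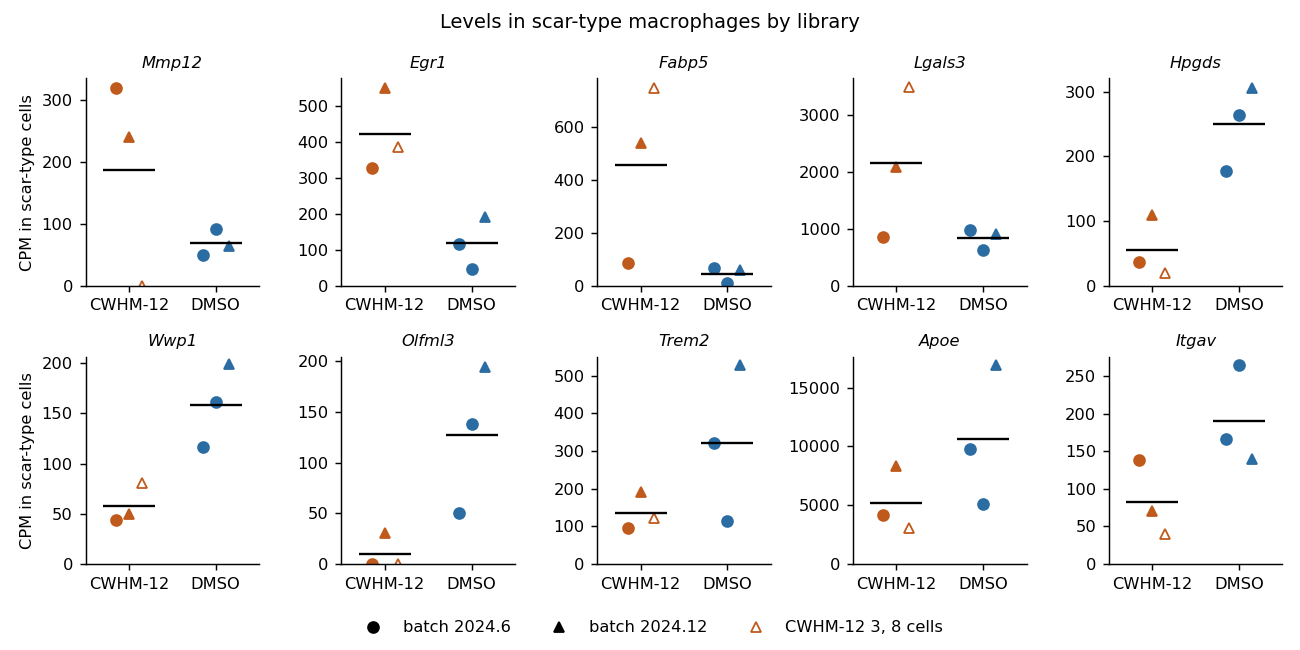
CPM of 10 genes in the summed scar-type macrophages of each library, CWHM-12 left and DMSO right, with the group mean as a line; circles and triangles are the 2 batches, and the open triangle is CWHM-12 3 with 8 members. Egr1 is higher and Hpgds and Wwp1 lower in each CWHM-12 library, Mmp12 overlaps, and none passed the test.

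Among genes of lipid handling, Fabp5 summed to 87.2, 540.3 and 748 CPM in CWHM-12 1 to 3, against 66.4, 11.5 and 59.6 CPM in DMSO 1 to 3. Apoe summed to 4193, 8354 and 3054 CPM in CWHM-12 1 to 3, against 9743, 5086 and 16933 CPM in DMSO 1 to 3. Apoc1 summed to 50.9, 70.0 and 80.9 CPM in CWHM-12 1 to 3, against 155, 138 and 191 CPM in DMSO 1 to 3. Fabp5 was above every DMSO library in all 3 CWHM-12 libraries and Apoc1 below, while Apoe overlapped. Their log2 fold changes were 2.12, -0.92 and -1.49, and none passed. They too were picked by p, within a list, and groups that lie apart were not set against all genes. Cxcl14, a chemokine, had no UMI in CWHM-12 1 to 3, against 38.7, 104 and 83.5 CPM in DMSO 1 to 3.

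Gene lists are given by their signs, since no member passed. Of 16 Kupffer identity genes tested, 15 had a negative log2 fold change, with a median of -0.62, beside 1436 of 2898 negative and a median of 0.00 over all genes. In the tighter selection 13 of 16 were negative, with a median of -0.30. Vsig4 had a value of -1.26, Mertk -0.89 and Slc40a1, the iron exporter, -0.81. Immediate early genes, which tissue dissociation also induces, had positive values for 15 of 16 (median 0.47, and in the tighter selection 11 of 12, median 0.58). MHC class II genes had 7 of 9 positive values (median 0.48). Of 8 genes of the TGF-β pathway, 6 were negative, with a median of -0.54. Skil, a repressor of Smad proteins that TGF-β induces, summed to 87.2, 170.1 and 20.2 CPM in CWHM-12 1 to 3, against 155, 288 and 294 CPM in DMSO 1 to 3 (log2 -1.06), and Nrros to 625, 450.2 and 506 CPM in CWHM-12 1 to 3, against 409, 368 and 326 CPM in DMSO 1 to 3 (log2 0.57). Nrros was higher in each CWHM-12 library than in each DMSO library, the groups overlapped for Skil, and neither passed. Both were picked by p within their list. Lysosomal genes were negative in 15 of 24 (median -0.24), and lipid-associated genes positive in 15 of 23 (median 0.23). Hepatocyte markers were negative in 10 of 11, with a median of -0.78, and T and NK markers positive in 4 of 5; their part in the other lists was not tested. Lipid-associated genes of the tighter selection were positive in 15 of 16 (median 0.39) and MHC class II genes in 6 of 8 (median 0.48). There lysosomal genes were negative in 17 of 23 (median -0.13), TGF-β genes in 3 of 4 (median -0.31) and hepatocyte markers in 4 of 5 (median -0.15). The mix of entry genes also differed, with 17 of 46 members Gpnmb-detected under CWHM-12, CWHM-12 3 included, and 45 of 100 under DMSO. In CWHM-12 1, 2 of 20 members had Gpnmb and 13 had only 2 or 3 core genes. In CWHM-12 2, 3 of 18 members had only 2 or 3 core genes, and under DMSO 24 of 100. The fit left 2 residual degrees of freedom, and the part of this mix in the signs was not tested.

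Whether the treatment difference was another one in scar-type cells than in the other Timd4-zero macrophages was tested as an interaction, and 12 of 8443 genes passed with edgeR (0.142%), 7 with a higher (0.0829%) and 5 with a lower (0.0592%) treatment effect in scar-type cells. With DESeq2 the count was 0 (43 at an unadjusted p under 0.05). Apoe summed in the other cells to 8793, 8129.9 and 7090.4 CPM in CWHM-12 1 to 3, against 10339, 4962 and 11905 CPM in DMSO 1 to 3, and the interaction was -0.79 on the log2 scale (edgeR adjusted p = 0.0229). Egr1 summed in the other cells to 126, 319.6 and 312 CPM in CWHM-12 1 to 3, against 94.3, 303 and 235 CPM in DMSO 1 to 3 (interaction 1.65, edgeR adjusted p = 0.027). Cd5l, a secreted protein of tissue macrophages, summed to 312, 1551 and 303 CPM in CWHM-12 1 to 3, against 647, 1703 and 1503 CPM in DMSO 1 to 3 in scar-type cells. In the other cells it summed to 1807, 2753 and 1183 CPM in CWHM-12 1 to 3, against 1929.9, 1548 and 1866 CPM in DMSO 1 to 3 (interaction -1.19, edgeR adjusted p = 0.0156). In the tighter selection 1 gene passed, Ly6c2, which was none of the 12, and without CWHM-12 1 edgeR called 1, the chemokine Ccl24.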

How the data were processed

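The deposited values were UMI counts, whole numbers for each gene in each barcode (per the file headers), and were used without scaling. Reads were mapped to GRCm39 according to the submitters' processing notes; no aligner or barcode selection is given in the sources used here. Cells of the class and of the other macrophages were selected per barcode as the report states, and their counts were summed per library. Levels are CPM of these sums. Tests used edgeR 4.0.16 with its quasi-likelihood fit (R 4.3.3; TMM, the edgeR filter on low counts, Benjamini-Hochberg adjustment), in libraries with at least 10 cells of a class. The treatment fit had a batch term, the class fit a library block, and the interaction also a class by batch term. The 21 genes of the rule were left out of the named genes. For shares, the exact permutation test over libraries was two-sided.

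Doublets were scored with Scrublet (scanpy 1.11.5). Its own threshold marked 0.0372% to 1.09% of a library, a share too low for that threshold to have worked in most. Doublets therefore stayed in, and cells with a score above 0.25 (1.11% to 2.73%) were removed as an alternative. Other alternatives were DESeq2 1.42.0, limma 3.58.1 voom, other scaling, filters, core gene minimums, thinning, blocks, denominators and leaving out each library. The edgeR scripts were tested on simulated data.

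The members, the 29 gene lists and the tests were chosen with earlier results of these data known. Named genes were up to 12 of largest rise and 12 of largest fall among those that passed with at least 50 CPM, or the 5 of smallest p where fewer than 5 passed, plus the 3 of smallest p in each list. Promoter windows are from RefSeq, build GRCm38.p6, and were used for sequence only. No variant or genome coordinate of the libraries was used. 1 gene of the interaction is not reported here.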

Additional observations from a re-analysis of the deposited data

Results flagged for a closer look

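The difference between the treatment effect in scar-type macrophages and in the other Timd4-zero macrophages passed for 12 genes, 11 of them given here, as an interaction of class and treatment over 5 libraries (CWHM-12 3 left out; edgeR, adjusted over 8443 genes). The values are log2, and a positive one means that CWHM-12 over DMSO was higher in scar-type cells. Apoe had -0.79 (edgeR adjusted p = 0.0229), Cd5l -1.19 (0.0156), Egr1 1.65 (0.027) and C3, the central complement component, 1.87 (0.027). In scar-type cells the cell with most of each transcript held 4.39% of the UMIs of Apoe, 13.3% of those of Cd5l, 15.1% of those of Egr1 and 21.8% of those of C3. The other 7 given here lay in few cells. Cxcl10, an interferon-induced chemokine, had 3.36 (0.00265), with 68.2% of its UMIs in 1 cell. Gzma had -3.36 (0.00867), with 52.6% in 1 cell, and Ccl24, an eotaxin, -3.36 (0.0123), with 70.3%. The neutrophil proteases Ctsg and Prtn3 had 9.33 (0.0203), with 83.3% of 6 UMIs in 1 cell, and 3.98 (0.0243), with 68.4%. Ifitm1 had 4.05 (0.027), with 51.6% in 1 cell, and the interleukin receptor Il7r 8.13 (0.027), with 31.2% of 16 UMIs. DESeq2 called 0 of them.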

How the results depend on the processing

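The lower mean share of scar-type cells under CWHM-12 kept its direction under every alternative and with each library left out. In the main setting the difference then lay between -3.25 and -1.94 points (between -1.72 and -0.498 for Gpnmb-detected members). With at least 4 core genes required of members and of the Timd4-zero macrophages they were divided by, it was -2.21 points (exact permutation p = 0.5). Without CWHM-12 1 that difference was -0.205 points, and CWHM-12 2 and 3 (7.39% and 7.79%) lay above DMSO 1 (4.60%). Members with fewer than 4 core genes differed by -0.421 points (exact permutation p = 0.4). Within the batch of CWHM-12 1, DMSO 1 and DMSO 2 their difference was 0.301 points. The count of genes between the classes (552) was 348 with the stricter cell filter, 165 with at least 4 core genes, 1230 without the filter on low counts, 231 without the library block, 135 with cells thinned to 1000 UMIs, 180 in the tighter selection, and 387 to 666 with a library left out. Between Gpnmb-detected and Itgax-only cells (122) it was 0 with at least 4 core genes, 77 without cells with a T or NK UMI, 3 with DESeq2, 63 without the filter, 5 with thinning, 42 with at least 4 cells of each kind and 1 in the tighter selection. Within the class, 0 genes passed between treatments (73 at an unadjusted p under 0.05), but 1 with at least 4 core genes (Ly6c2), 6 without the filter and 4 when the replicate number was the block (Cd7, Egr1, Gzmb and Ms4a7; 0 with all 6 libraries in that paired fit). The numbers were not taken as pairing samples. Same-numbered libraries correlated by 0.175, 0.0245 and 0.00461, against -0.143 to 0.105 for libraries of different numbers. These values do not decide whether the libraries are paired. CWHM-12 2 and DMSO 2 lay in different batches. The interaction (12) gave 4 with at least 4 core genes, 4 without T or NK UMIs, 0 with DESeq2, 1 with limma voom, 5 without the filter, 0 without the class by batch term, 0 with all libraries, 1 in the tighter selection, and 1 to 23 with a library left out (1 without CWHM-12 1, 22 without CWHM-12 2, 7 without DMSO 1, 7 without DMSO 2, 23 without DMSO 3). Signs turned between the classes for Itgav (-0.036 in the tighter selection), Lpl (-0.14 with at least 4 core genes, -0.16 with Timd4-positive cells among the others) and Apoe (0.040 with the stricter cell filter, and between -0.31 without DMSO 3 and 0.063 without CWHM-12 1). In the interaction they turned for Cxcl10 (-3.72 with at least 4 core genes, between -3.91 without CWHM-12 1 and 7.64 without DMSO 3, -3.56 in the tighter selection), Prtn3 (-0.77 without T or NK UMIs) and Ifitm1 (between -4.67 without CWHM-12 1 and 4.65 without DMSO 3). The cause was not tested. Fits restricted to libraries with 20 cells (treatment, interaction, Gpnmb-detected against Itgax-only) and the last of these without DMSO 1 or DMSO 3 had too few libraries and were not run. The alternatives set after the data were seen were the tighter selection, the fits with all libraries or at least 4 cells of each kind, and 6 of the shares. The 8 members of CWHM-12 3 and the 2 Gpnmb-detected cells of CWHM-12 1 limit what these libraries can show.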
